A study of Mus musculus with 2 samples.

Results

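The genes described here are Eomes, Insm1, Btg2 and Gadd45g, 4 genes active in the intermediate progenitors of the developing neocortex, out of 22367 annotated protein-coding genes. Each was assigned the p300 peaks whose midpoint fell inside the gene or within 500 kb of its transcription start site, which gave 39 of 6629 peaks. The peaks come from 1 p300 ChIP-seq library, made with the C-20 antibody from neocortex of Swiss Webster mice at embryonic day 14.5 (the dorsal cerebral wall without hem, hippocampus and choroid plexus). The labels give no genetic change, no treatment other than fixation and no number of embryos. An input library of the same tissue served as the control for peak calling and was not analysed here. With 1 library there was no replicate, so no comparison between samples was possible. The deposited list gives the position of each peak without reads, score or enrichment, so the depth behind a single peak is unknown.

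Intermediate progenitors are born from radial glia at the ventricle, move to the subventricular zone and divide there to produce glutamatergic neurons. Eomes, also called Tbr2, is the T-box transcription factor that marks them. Insm1 is a zinc finger transcription factor that promotes their formation, Btg2 restrains the cell cycle and marks progenitors about to produce neurons, and Gadd45g belongs to a family of small growth arrest proteins. The co-activator p300 is an acetyltransferase that transcription factors bring to enhancers, so its peaks away from start sites are candidate enhancers. The tissue also held radial glia and neurons, and the list does not tell in which of these cells a peak arose. No expression was measured.

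The 4 genes differed in how many peaks they had and where these lay. Insm1 had 19 peaks on both sides of the gene, Eomes had 7 that were all upstream and no nearer than 150 kb, Gadd45g had 7 from 4.59 kb outward, and Btg2 had 6, of which 5 lay within 25 kb of its start site. No peak lay inside a member gene, and none overlapped an exon of the GENCODE vM1 annotation. The authors had removed peaks at exons and within 2.5 kb of a start site, so the promoters of the 4 genes could not contribute.

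**Figure D1:**
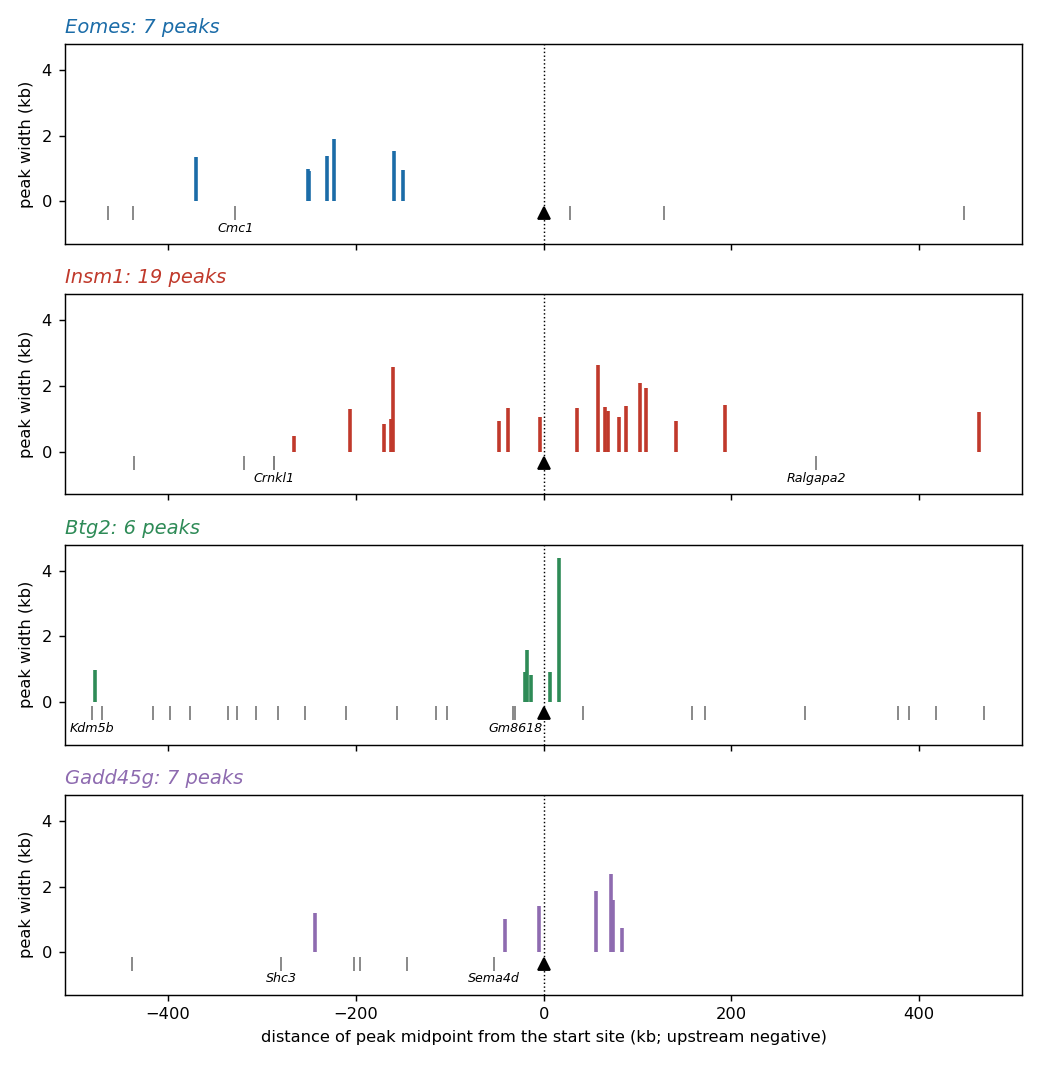
Position of the 39 p300 peaks relative to the start site of each gene (x axis, kb, upstream negative); the height of each line is the width of the peak (y axis, kb), the triangle marks the gene's own start site and grey ticks mark other protein-coding start sites, named where they are the nearest to a peak. Eomes has peaks on the upstream side alone, Insm1 on both sides, and 5 of the 6 Btg2 peaks crowd around its start.

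The peak nearest each start site is shown first, since it is the candidate enhancer that distance alone would assign to the gene. The sequences are the middle 300 bases of the peak on the plus strand of mm9, 5′ to 3′. Capitals mark matches, on either strand, to the 8 motifs searched: E-box (CAGCTG or CATCTG), homeodomain (TAATTA), Nfi motif (TTGGCA), Sox (ACAAAG or ACAATG), T-box (AGGTGTGA), RBPJ (GTGGGAA), POU octamer (ATGCAAAT) and Rfx motif (GTTGCC).
Eomes peak 6525, chr9:118237231-118237530: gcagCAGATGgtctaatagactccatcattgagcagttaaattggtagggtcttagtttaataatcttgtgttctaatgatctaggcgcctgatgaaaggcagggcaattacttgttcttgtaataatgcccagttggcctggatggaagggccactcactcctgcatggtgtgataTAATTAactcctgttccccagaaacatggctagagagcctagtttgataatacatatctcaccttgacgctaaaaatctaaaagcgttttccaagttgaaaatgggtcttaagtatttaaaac
Insm1 peak 3605, chr2:146043869-146044168: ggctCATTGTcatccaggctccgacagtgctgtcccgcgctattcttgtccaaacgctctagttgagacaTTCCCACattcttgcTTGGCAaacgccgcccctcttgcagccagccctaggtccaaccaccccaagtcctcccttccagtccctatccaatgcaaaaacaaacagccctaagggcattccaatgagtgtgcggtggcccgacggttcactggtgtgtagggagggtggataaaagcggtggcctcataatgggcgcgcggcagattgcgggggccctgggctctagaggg
Btg2 peak 274, chr1:135968311-135968610: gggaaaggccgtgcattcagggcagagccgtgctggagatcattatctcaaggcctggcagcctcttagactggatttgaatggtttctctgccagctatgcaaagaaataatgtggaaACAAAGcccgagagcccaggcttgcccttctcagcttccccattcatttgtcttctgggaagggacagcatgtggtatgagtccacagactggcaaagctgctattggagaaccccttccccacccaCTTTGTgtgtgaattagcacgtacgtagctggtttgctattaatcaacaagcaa
Gadd45g peak 1629, chr13:51937311-51937610: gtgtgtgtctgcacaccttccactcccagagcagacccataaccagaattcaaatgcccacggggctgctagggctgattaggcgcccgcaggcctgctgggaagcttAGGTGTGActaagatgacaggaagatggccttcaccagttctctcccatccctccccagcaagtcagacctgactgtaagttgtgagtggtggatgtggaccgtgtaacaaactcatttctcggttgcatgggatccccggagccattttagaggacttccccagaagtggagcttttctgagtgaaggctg

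These 4 stretches held different motifs. The Eomes peak had an E-box match and a homeodomain match, the Insm1 peak a Sox, an RBPJ and an Nfi match, the Btg2 peak a pair of Sox matches and the Gadd45g peak a single T-box match. A match is a run of letters and does not show that a factor was bound.

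The widest peak in each window is shown next, as its middle 200 bases in the same way, because width was the only property of a peak beside its position that the list gives.
Eomes peak 6523, chr9:118164809-118165008: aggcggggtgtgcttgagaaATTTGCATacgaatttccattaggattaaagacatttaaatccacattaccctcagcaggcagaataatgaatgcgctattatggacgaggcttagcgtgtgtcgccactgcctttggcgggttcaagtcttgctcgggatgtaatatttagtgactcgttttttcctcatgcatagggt
Insm1 peak 3607, chr2:146105419-146105618: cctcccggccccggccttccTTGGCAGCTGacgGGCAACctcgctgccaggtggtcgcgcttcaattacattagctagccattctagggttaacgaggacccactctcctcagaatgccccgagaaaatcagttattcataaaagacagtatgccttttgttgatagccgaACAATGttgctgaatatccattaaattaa
Btg2 peak 273, chr1:135958717-135958916: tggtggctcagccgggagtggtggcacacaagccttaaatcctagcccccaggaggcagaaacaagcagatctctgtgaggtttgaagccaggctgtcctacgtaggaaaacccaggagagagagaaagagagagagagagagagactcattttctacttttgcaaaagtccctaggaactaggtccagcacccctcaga
Gadd45g peak 1631, chr13:52013903-52014102: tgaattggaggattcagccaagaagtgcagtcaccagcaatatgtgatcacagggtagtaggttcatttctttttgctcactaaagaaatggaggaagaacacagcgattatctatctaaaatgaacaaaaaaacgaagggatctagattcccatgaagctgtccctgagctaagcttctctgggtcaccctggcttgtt

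In the middle of the widest Insm1 peak an Nfi motif and an E-box shared bases, and matches to the Rfx and Sox motifs lay on the same stretch. The widest Eomes peak held a POU octamer there. No motif searched occurred in the middle 200 bases of the widest Btg2 or Gadd45g peak. In the middle 500 bases, peak 273 held 4 matches of 3 kinds and peak 1631 held 1 E-box.

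Insm1 (ENSMUSG00000068154) is a plus-strand gene at chr2:146047657-146050752 of mm9. Its 19 peaks were 7.33 times the 2.59 expected from the length of the window (exact Poisson 95% interval of the ratio 4.42 to 11.5, which covers counting error alone). Only 44 protein-coding genes, or 0.197%, had at least as many. The count passed the exact binomial test (one-sided, adjusted p = 2.59e-08, Benjamini-Hochberg over all protein-coding genes), which is meant by exact test from here on. Among all genes tested 4.09% passed, so that 1 of the 4 genes passed against a background of 4.09%. The test takes peaks as placed evenly over the assembled genome, which clustered peaks are not. Windows of neighbouring genes also share peaks, so the count is not particular to Insm1. The upstream neighbour 4930529M08Rik had 18 peaks in its own window (6.95 times, adjusted p = 1.42e-07, exact test).

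Of the Insm1 peaks, 8 lay upstream and 11 downstream. The nearest, peak 3605, covered 1066 bp from 146043486 to 146044551, and its midpoint lay 3.64 kb upstream of the start site in intergenic sequence. A peak as near was found for 0.326% of protein-coding genes, after the authors had removed peaks within 2.5 kb of start sites for every gene. Its GC content of 59.3% was the highest among the 19. Further upstream, peaks 3604 and 3603 lay at 37.6 and 47.5 kb in introns of 4930529M08Rik, a coding gene that reaches almost to Insm1.

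The downstream peaks were the denser group. From 35.2 to 141 kb past the start site, 9 consecutive peaks (3606 to 3614) lay in introns of Ralgapa2, a subunit of a GTPase-activating complex for Ral, in a stretch of 106 kb between the outermost midpoints. Within it, 7 peaks fell in 51.5 kb. The widest of the window, peak 3607, covered 2627 bp at 57.9 kb from the start site, and only 56 of all peaks were at least as wide. Peaks 3612 and 3613, at 103 and 109 kb, were 2107 and 1954 bp wide. Although these 9 peaks are inside Ralgapa2, the start site of Insm1 was nearer to each than that of Ralgapa2, which lies 290.1 kb away at the far end of that gene. In all, Ralgapa2 introns held 10 of the 19 peaks and 4930529M08Rik introns held 7.

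A second upstream group lay farther out. Peaks 3600, 3601 and 3602 had midpoints within 10.7 kb of one another, at 170, 163 and 160 kb from Insm1, and peak 3602 was 2573 bp wide. These were nearer to the start site of Crnkl1, a splicing factor gene, than to that of Insm1. Counted over all peaks of the window, Insm1 was the nearest protein-coding gene for 12 of 19, Crnkl1 for 5, and Ralgapa2 and Plk1s1 for 1 each. When non-coding genes were counted too, Insm1 stayed the nearest for 3, since the non-coding genes A930019D19Rik and Gm14117 start among the downstream peaks.

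Eomes (ENSMUSG00000032446) is a plus-strand gene at chr9:118387330-118395250. Its 7 peaks were 2.7 times the expected 2.59 (exact Poisson 95% interval of the ratio 1.09 to 5.57) and did not pass the test over all genes (adjusted p = 0.197, exact test). A count of 7 or more was found for 8.63% of protein-coding genes. All 7 were upstream, and the 500 kb downstream of the start site held 0 peaks. The list also held 0 Eomes peaks within 100 kb on either side. Because it contains called peaks alone, weaker p300 signal there is not visible.

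The Eomes peaks fell into a far peak and 2 groups. Peak 6519 lay 370 kb away in an intron of Cmc1, a gene for a mitochondrial assembly factor. Peaks 6520 to 6523 followed within 28 kb, at 251, 250, 231 and 223 kb from Eomes. Of these, 6520 and 6521 were separated by 65 bases, and the widest was 6523, at 1907 bp. The innermost pair, 6524 and 6525, lay 159 and 150 kb from the start site, 9.2 kb apart. Eomes was the nearest protein-coding gene for this pair and Cmc1 for the other 5. Nearest of all was a 7SK RNA gene annotated between these groups, for 6 of the 7.

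Peak 6525, whose middle is printed above, covered 957 bp from 118236902 to 118237858. It lies inside elt1, the element that the study chose for reporter assays beside Eomes, which spans chr9:118236652-118237937 by its primers. The reporter assays were not analysed here. In its middle 500 bases the peak held 5 motif matches of 4 kinds, 2 of them E-boxes, the most kinds of any Eomes peak.

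Btg2 (ENSMUSG00000020423) is a minus-strand gene at chr1:135971747-135975697. Its 6 peaks were 2.32 times the expected 2.59 (exact Poisson 95% interval of the ratio 0.85 to 5.04) and did not pass (adjusted p = 0.383, exact test). At least as many were found for 12.7% of protein-coding genes. The window is crowded, with 25 protein-coding start sites, against 7 for Eomes, 6 for Insm1 and 7 for Gadd45g.

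Btg2 had more peaks within 25 kb than any other member, although its nearest, at 7.24 kb, was farther than those of Insm1 (3.64 kb) and Gadd45g (4.59 kb). Within 25 kb, a distance picked after the positions were seen because it encloses the fifth peak, it had 5 peaks, where the length of that interval gives 0.13. At least as many were found for 0.0402% of protein-coding genes. These 5 midpoints spanned 37.1 kb. Peaks 274 and 273 lay 7.24 and 16.9 kb downstream, and peaks 275, 276 and 277 lay 13.8, 17.4 and 20.3 kb upstream. In a window of 50 kb, chosen in the same way, Btg2 passed the test with 5 peaks against 0.259 expected (adjusted p = 0.00337, exact test), where 0.452% of all genes passed. Insm1 passed there too, with 4 peaks (adjusted p = 0.0352, exact test), while Eomes and Gadd45g did not. Peaks 275, 276 and 277 were separated by 2365 and 1678 bases. Joining peaks less than 5 kb apart merged these into a single peak and left 4 in the window of 500 kb.

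Peak 273 was the widest of the 39 and among the 5 widest of all 6629. It covered 4388 bp from 135956623 to 135961010 in intergenic sequence, against a median of 1017 bp over all peaks and 808 to 1573 bp for the other Btg2 peaks within 25 kb. The sixth Btg2 peak, number 278, lay 478 kb upstream and 3.26 kb from the start of Kdm5b, a histone demethylase gene. For peaks 276 and 277 the nearest protein-coding start was Gm8618, a gene known by a model name. Without such names it was Chit1, a chitinase gene, so Btg2 was the nearest for 3 of 6 with either set.

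Gadd45g (ENSMUSG00000021453) is a plus-strand gene at chr13:51942047-51943837. Its 7 peaks were 2.7 times the expected number, as for Eomes, and did not pass (adjusted p = 0.197, exact test). All 7 were intergenic. The nearest, peak 1629, covered 1414 bp from 51936754 to 51938167 at 4.59 kb upstream. After the same removal of peaks close to start sites, 0.662% of protein-coding genes had a peak as near. Peak 1628, at 40.8 kb upstream, was closer to Sema4d, which encodes a semaphorin, and peak 1627, at 243 kb, to the adaptor gene Shc3.

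The other 4 Gadd45g peaks formed a group downstream, from 56.3 to 83.7 kb past the start site and 27.4 kb long. Peak 1630 was 1864 bp wide, peak 1631 was 2370 bp and peak 1632 was 1578 bp, all wider than the upper quartile of all peaks at 1260 bp. Peaks 1631 and 1632 were separated by 322 bases. No other protein-coding gene starts between Gadd45g and the end of the window on this side, and Gadd45g was the nearest protein-coding gene for 5 of its 7 peaks. Within 250 kb, where all 7 peaks lay, the count passed the test (5.4 times the 1.3 expected there, adjusted p = 0.0193, exact test), with 2.09% of all genes passing.

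**Figure D2:**
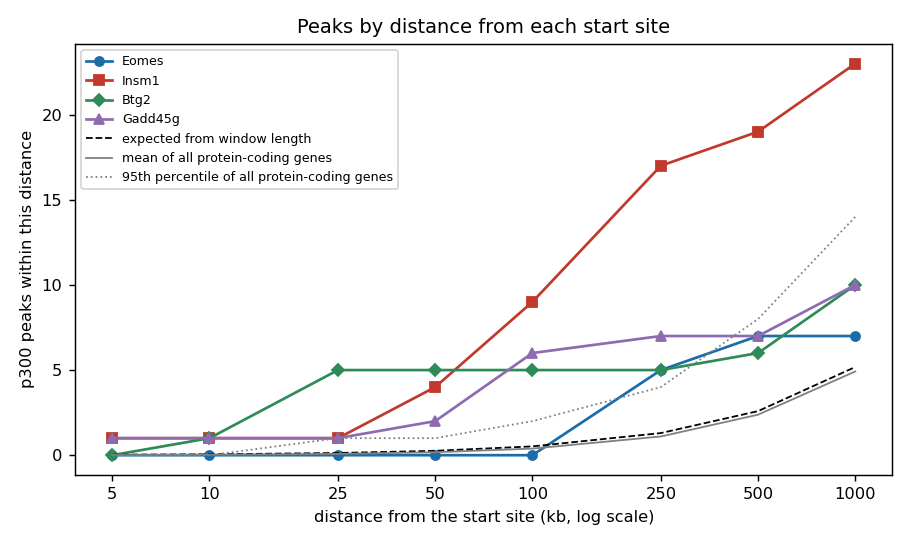
Number of p300 peaks within a given distance of the start site (x axis, kb, log scale; y axis, peaks) for the 4 genes, with the number expected from the interval's length, the mean and the 95th percentile over 22367 protein-coding genes. Btg2 reaches 5 peaks by 25 kb, Gadd45g 6 and Insm1 9 by 100 kb, while Eomes has 0 until after 100 kb.

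The call therefore depended on the distance counted. Within 100 kb, a distance chosen after the positions were seen, Insm1 (9 peaks, adjusted p = 6.49e-06), Gadd45g (6 peaks, adjusted p = 0.00476) and Btg2 (5 peaks, adjusted p = 0.0245) passed the exact test, 3 of the 4 genes where 0.885% of all genes passed. Eomes had 0 peaks there. In regulatory domains, which run from 5 kb upstream and 1 kb downstream of a start site to the same limits of the neighbouring protein-coding genes and by at most 1 Mb, all 4 passed, against 1.13% of all genes. For Eomes it was 6 peaks in a domain of 0.346 Mb (6.69 times the number expected, adjusted p = 0.0338, exact test). The Insm1 domain held 18 peaks in 0.571 Mb (12.2 times, adjusted p = 1.08e-10, exact test). For Btg2 it was 5 peaks in 0.0661 Mb (29.2 times, adjusted p = 0.000286, exact test), and for Gadd45g 9 peaks in 0.731 Mb (4.75 times, adjusted p = 0.0184, exact test). Domains and windows of neighbouring genes share peaks, so these values do not assign a peak to 1 gene.

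**Figure D3:**
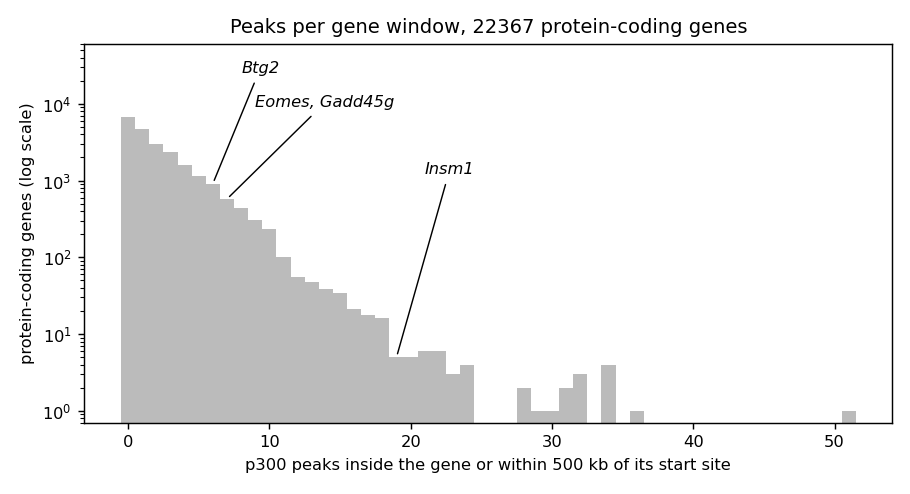
Number of protein-coding genes (y axis, log scale) by the number of p300 peaks inside the gene or within 500 kb of its start site (x axis). Most genes have few peaks, with a median of 1 and a 95th percentile of 8, and Insm1 with 19 lies far to the right of Btg2 with 6 and of Eomes and Gadd45g with 7.

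Over all protein-coding genes the window held a median of 1 peak and 6722 genes had none, so each of the 4 genes had more than the median gene. The nearest peak was a median of 263 kb away over all genes. A peak as near as that of Insm1, Gadd45g or Btg2 was found for 0.326, 0.662 and 1.6% of genes, and one as near as that of Eomes for 33.7%. The authors had removed peaks at exons and within 2.5 kb of a start site, which thins short distances for every gene. Within 5 kb the mean over all genes was 0.00814 peaks, where the length of the interval gives 0.0259. The part of this removal in the small shares was not tested.

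The peaks of the 4 genes were compared with all peaks in width and base composition, as a description with no test, since peaks of 1 gene share a locus. Their median width was 1285 bp, and 25 of 39, or 64.1% (exact Clopper-Pearson 95% interval 47.2 to 78.8%, counting error alone), were at least as wide as the median of all peaks. A width of 1643 bp, above which the widest 10% of all peaks lie, was reached by 8 of the 39. The narrowest, Insm1 peak 3598, was 472 bp. GC content differed by gene. Median values were 53.6% for Btg2 and 52.3% for Gadd45g, 45.8% for Eomes and 42.9% for Insm1, beside 45.2% for all peaks. The upper quartile of all peaks, 50%, was exceeded by 5 of 6 Btg2 peaks, 5 of 7 Gadd45g peaks, 2 of 19 Insm1 peaks and 0 of 7 Eomes peaks. Reads of 36 bp had to map to a single place. In 36 of the 39 peaks at least 95% of the 36-base words occurred once in the assembly, and the lowest share was 86.4%, in Insm1 peak 3601. Words were compared exactly, while the authors' alignment also allowed mismatches, so near copies were not counted.

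**Figure D4:**
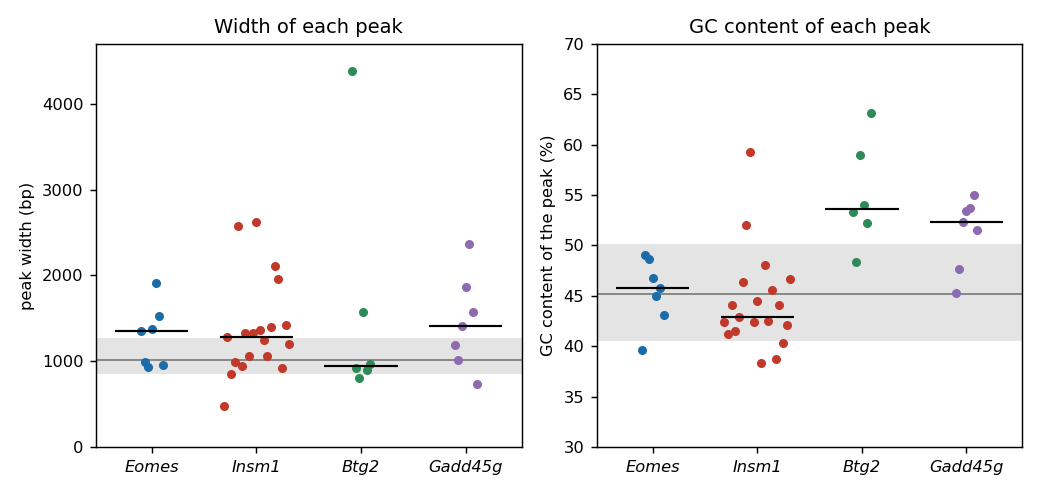
Width (left, bp) and GC content (right, %) of each of the 39 peaks by gene; black lines are the medians of each gene, and the grey line and band are the median and quartiles of all 6629 peaks. The Btg2 peak of 4388 bp stands above all others, and most Btg2 and Gadd45g peaks lie above the band of GC content.

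The same 8 motifs were counted in the middle 500 bases of each peak, in all peaks and in 6621 regions of 500 bases centred 10 kb downstream of a peak. No motif contains another. E-boxes of the kind that proneural factors such as Neurog2 and Neurod1 bind were found in 30 of the 39 peaks, or 76.9% (exact Clopper-Pearson 95% interval 60.7 to 88.9%), beside 74.1% of all peaks and 47.8% of the downstream regions. They occurred in 5 of 7 Eomes, 16 of 19 Insm1, 4 of 6 Btg2 and 5 of 7 Gadd45g peaks. Insm1 peak 3601 held 4 E-boxes and Gadd45g peak 1632 also held 4. The Nfi motif occurred in 38.5% of the 39 peaks, 42.3% of all peaks and 23.5% of the downstream regions. For both motifs the interval of the 39 peaks included the share of all peaks.

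The homeodomain motif occurred in 28.2% of the 39 peaks (15 to 44.9% by the same interval), 31.3% of all peaks and 15.1% of the downstream regions. By gene it was in 4 of 7 Eomes peaks and 0 of 6 Btg2 peaks. The Btg2 peaks also had the higher GC content, and the part of GC content in this difference was not tested. Sox matches were in 24 of 39 peaks, or 61.5%, beside 56.5% of all peaks and 53.1% of the downstream regions. By gene they were in 3 of 7 Eomes, 15 of 19 Insm1, 5 of 6 Btg2 and 1 of 7 Gadd45g peaks.

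The remaining motifs were rare. The T-box motif, of the family to which Eomes itself belongs, was in 2 of the 39 peaks, 3.03% of all peaks and 2.4% of the downstream regions. Those 2 were Gadd45g peak 1629, printed above, and Insm1 peak 3602. RBPJ, through which Notch acts, had a match in 3 peaks, all among the 19 of Insm1, against 11% of all peaks and 9.85% of the downstream regions. The POU octamer was in 2 peaks (7.6% of all peaks and 3.38% downstream), and Insm1 peak 3610 had a pair of them. The Rfx motif was in 5 peaks (12.8%, beside 19.8% of all peaks and 14.1% downstream), 3 of them at Gadd45g. With 39 peaks, shares of this size could not be told from those of all peaks.

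**Figure D5:**
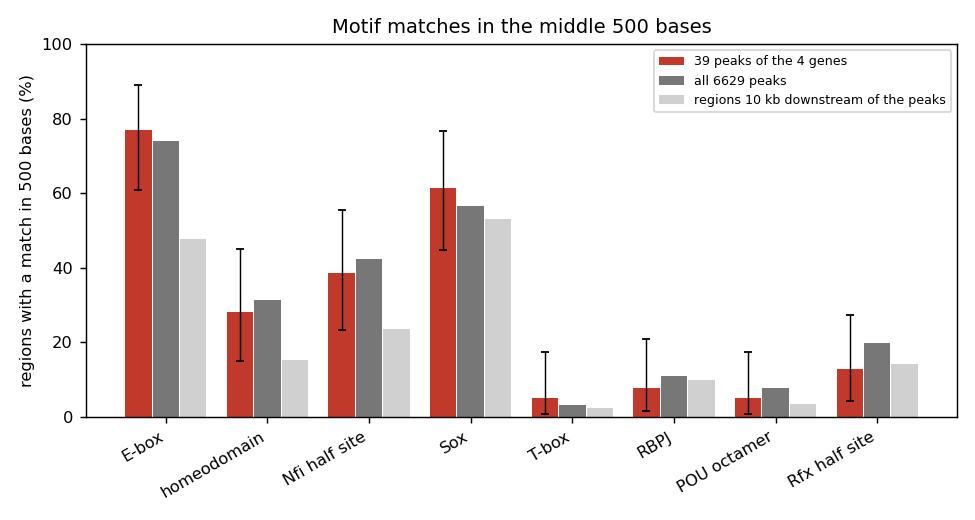
Share of regions with a match to each motif in the middle 500 bases (y axis, %) for the 39 peaks of the 4 genes, all 6629 peaks and regions 10 kb downstream; bars on the first are exact Clopper-Pearson 95% intervals. For every motif the interval includes the share of all peaks, and for each of the 8 motifs the share of all peaks is above that downstream.

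Other genes of the neurogenic programme were read from the same test. Of a list of 12 genes, 4 passed, or 33.3%, against the background of 4.09%, and the median ratio of observed to expected peaks was 1.74, against 0.402 over all genes. This list and that of relatives below were chosen with earlier results of these data known. Their values describe the listed genes and are not independent support. Neurog2, the proneural factor that drives the transition to intermediate progenitors, had 16 peaks, 6.18 times the expected number (adjusted p = 3.92e-06, exact test), the nearest at 7.25 kb. Sstr2, a somatostatin receptor gene, had 18 peaks (6.95 times, adjusted p = 1.42e-07, exact test), the nearest at 7.4 kb. Pax6, the radial glial factor that acts before Eomes, had 12 peaks (4.63 times, adjusted p = 0.00145, exact test), the nearest at 51.4 kb. Dll1, a Notch ligand, had 9 (3.47 times, adjusted p = 0.0354, exact test), the nearest at 4.89 kb. In their regulatory domains Neurog2 had 9 peaks, Sstr2 4, Pax6 7 and Dll1 7, so some peaks of each window lay outside the gene's domain.

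The other 8 genes of the list did not pass. Neurog1 had 7 peaks, as many as Eomes and Gadd45g, Neurod1 had 5, Mfng 4, Unc5d and Elavl4 3 each and Neurod4 1. Regulatory domains held 9 peaks for Unc5d, 3 for Neurog1, 1 each for Mfng and Neurod4, and 0 for Neurod1 and Elavl4. Hes6 and Dll3 had none, and their nearest peaks lay 626 and 618 kb away. Of 10 relatives of the 4 genes, 0 passed, where 4.09% of all genes did. In the same exact binomial test 3 of the 10 had an unadjusted p under 0.05, a level that 12.6% of all genes reached. Their median ratio of observed to expected peaks was 0.965, beside 0.402 over all genes. Beside Eomes, the T-box genes Tbr1 and Tbx21 had 7 peaks each. In regulatory domains Tbr1 had 2 peaks and Tbx21 0, where Eomes had 6. Tbr1, which follows Eomes in new neurons, had its nearest peak at 6.28 kb, and Tbx21, a T cell factor, at 195 kb. Insm2 had 2 peaks where Insm1 had 19. Of the relatives of Btg2, Tob1 had 7 peaks, Btg1 3, Btg3 and Btg4 2 each and Tob2 1. Their regulatory domains held 5 peaks for Btg1, as for Btg2, 2 for Tob1, 1 for Btg4, and 0 for Btg3 and Tob2. Gadd45b had 5 peaks and Gadd45a none.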

How the data were processed

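Chromatin immunoprecipitated for p300 and its input control were sequenced as 1 library each. Reads of 36 bp were aligned by the authors with ELAND to mm9, keeping unique alignments with few mismatches. Peaks were called with MACS 1.4 (version from the submitters' processing notes) against the input. Other than the peak's name, the deposited list holds start and end positions alone, with no fold enrichment or read count, and therefore no depth. Before deposit the authors filtered the list, dropping any peak that met an exon, that came closer than 2.5 kb to a start site in their gene set, or whose reads might belong elsewhere in the genome. Their gene set was not used here, and start sites of GENCODE vM1 can lie closer to a peak.

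Peaks were placed on the NCBIM37 sequence (the mm9 assembly) and GENCODE vM1, with 1 start site per gene from the transcript with the longest coding sequence (ties to the longer transcript). For each of 22367 protein-coding genes, peaks in the window were tested against the window's share of 2.56 Gb of assembled bases by an exact binomial test for an excess (one-sided), with Benjamini-Hochberg adjustment over all genes and a threshold of 0.05. Calculations used Python 3.11.15, numpy 2.4.6 and scipy 1.17.1, and were tested on simulated data. Intervals are 95% and cover counting error. The members, gene lists and motifs were chosen with earlier results of these data known. The genes named were the 4 members, both lists, and genes holding a peak or with the start site nearest to one. Non-coding neighbours of Insm1 and Eomes and the gene Chit1 were named after their values were seen.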

Additional observations from a re-analysis of the deposited data

How the results depend on the processing

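With 1 library, no replicate could be left out and depth could not be varied. No paired analysis was possible because the p300 and input libraries are a single pair without replication. The list has no score, so width stood in for a stricter threshold. Insm1 passed under all 10 planned and 3 added alternatives, with ratios of observed to expected peaks from 4.44 to 17.4. Eomes passed in regulatory domains (6.69 with either set of neighbouring genes) and reversed to 0 within 50 and 100 kb, where it had no peak. Within 1 Mb its ratio fell to 1.35 (7 peaks against 5.18 expected), and those of Btg2 and Gadd45g were 1.93 each. Btg2 passed in domains (29.2, and 28.4 without genes of model names) and within 50 kb (19.3) and 100 kb (9.65). Its ratio was lowest with the wider peaks alone (1.54, 2 peaks) and with joined peaks (1.68, 4 peaks), and it passed with neither. Gadd45g passed within 250 kb (5.4), 100 kb (11.6) and in domains (4.75 with either set). These follow from the interval counted. The number of genes passing was 914, and 468 within 250 kb, 1537 within 1 Mb, 198 within 100 kb and 101 within 50 kb. It was 459 with the wider peaks alone, 515 with peaks joined, 252 in domains and 238 in domains without model names. Of the 12 neurogenic genes, 4 passed, 2 within 50 kb, 2 within 100 kb and 3 under each of 4 other settings (1 Mb, wider peaks, joined peaks and a two-sided test). Of the 10 relatives, 0 passed under any alternative, where from 101 to 1537 of 22367 protein-coding genes did. With shares this low, 0 of 10 does not set the relatives apart from other genes. Distances of 25, 50 and 100 kb and domains without model names were chosen after seeing the data. Motif shares moved with the sequence searched. In whole peaks they were 97.4% for E-boxes (88.6% of all peaks), 56.4% for Nfi (60.7%), 87.2% for Sox (81%) and 41% for Rfx (34.5%). In the middle 200 bases they were 46.2% for E-boxes (51.3% of all peaks), 15.4% for Nfi (23.9%) and 28.2% for Sox (28.9%). In peaks nearest to a member the homeodomain share was 13.6%.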
